A study of Mus musculus with 6 samples.

Results

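Bmp antagonists are proteins that keep bone morphogenetic proteins (Bmps) from signalling. The 7 genes described here are Grem1, Sostdc1, Nog, Chrd, Twsg1 and Nbl1, whose products are secreted, and Bambi, whose product is a receptor without kinase activity. They are 7 of the 43274 genes in the tables of reads per gene and were found by their Ensembl identifiers. They were chosen as a pathway group with measured values of the same genotype comparison in view, so their differences between genotypes are given as a description and support nothing.

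Bmps bind pairs of type I and type II receptor kinases, which phosphorylate Smad1, Smad5 and Smad9. With Smad4 these proteins enter the nucleus and switch on targets such as the Id genes. Antagonists such as noggin, chordin and gremlin bind the ligand outside the cell, and Bambi takes the place of a working receptor at the membrane. In the hair follicle, Bmp signals are known to hold bulge stem cells (bulge SCs) in their resting state, and antagonists made in and around the follicle are known to accompany the start of a new growth phase.

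RNA was sequenced from bulge SCs that had been sorted from mouse epidermis at postnatal day 21 as CD34+ cells with high α6 integrin. There were 3 control libraries (genotype ILK +/- in the labels), from mice in which K5-Cre met Ilk floxed on 1 allele, and 3 ILK-K5 libraries (genotype ILK -/-), in which it met Ilk floxed on both alleles. Controls and ILK-K5 thus both carried a Cre driven by the keratin 5 promoter, which is active in basal cells of the whole epidermis and follicle, so deletion was not limited to the bulge, and the controls were littermates with 1 Ilk allele deleted in these cells. The labels do not say that each library came from a separate animal, so the errors given below measure the spread between libraries.

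Reads on genes numbered between 8228019 and 11969072 per library, and 1 read was worth 0.726 to 1.52 normalized counts (reads divided by the size factor of the library). Mitochondrial genes took 11.5 to 27.6% of the reads. The level of Ilk did not check the genotype, since 89.7% of its 2744 exon bases are shared with Taf10 and Rrp8 on the opposite strand and the cDNA amplification is not stated to keep strand. Ilk had 10.6, 16.7 and 38.5 normalized counts in the control libraries and 14.8, 30.9 and 29.2 in ILK-K5. Of the bulge SC markers, Krt15 was the highest, with 58056 ± 35346 normalized counts (SD, n = 3) in control and 26550 ± 14549 in ILK-K5. Cd34, a marker used for the sort, was the only 1 of the 8 markers in this list that was called, and it was lower in ILK-K5, with 2009, 947 and 1960 normalized counts in control against 296, 560 and 433. Markers of other cells were present as well. All 8 macrophage markers were called higher, with summed levels of 83.6 to 115 normalized counts in control and 7644 to 10361 in ILK-K5 (0.0786 to 0.119% of reads). Lyz2 was the highest of them and Fcgr1 was at 0 in all control libraries.

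Grem1 and Sostdc1 made up most of the antagonist RNA in control bulge SCs. Compared per gene length, as FPKM (fragments scaled to gene length and library size), Sostdc1 stood first in control with 341 ± 120 (SD, n = 3) and Grem1 second with 243 ± 185. Their ranges over the libraries overlapped, from 212 to 449 for Sostdc1 and from 107 to 454 for Grem1. Only 124 of the 16368 genes tested had a higher mean FPKM than Sostdc1 in control, and 194 had a higher one than Grem1. Twsg1 followed with 50.3 ± 2.02 FPKM, Nbl1 with 16.8 ± 11.8 and Bambi with 1.84 ± 1.03. Nog, at 0.617 ± 0.308 FPKM, and Chrd, at 0.0743 ± 0.0384, came last. From Grem1 downwards, no member's range in the control libraries overlapped that of the next.

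The order was different in ILK-K5 bulge SCs, where Twsg1 stood first with 45.9 ± 5.53 FPKM. Sostdc1 was beside it with 45.5 ± 1.16 FPKM, inside the range of Twsg1. Grem1, with 17.1 ± 6.08 FPKM, overlapped Nbl1, with 14.7 ± 9.24. Bambi had 0.517 ± 0.0939 FPKM, and Chrd (0.151 ± 0.101) and Nog (0.150 ± 0.168) could not be ordered. In ILK-K5, 987 tested genes had a higher mean FPKM than Sostdc1 and 2653 a higher one than Grem1.

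**Figure D1:**
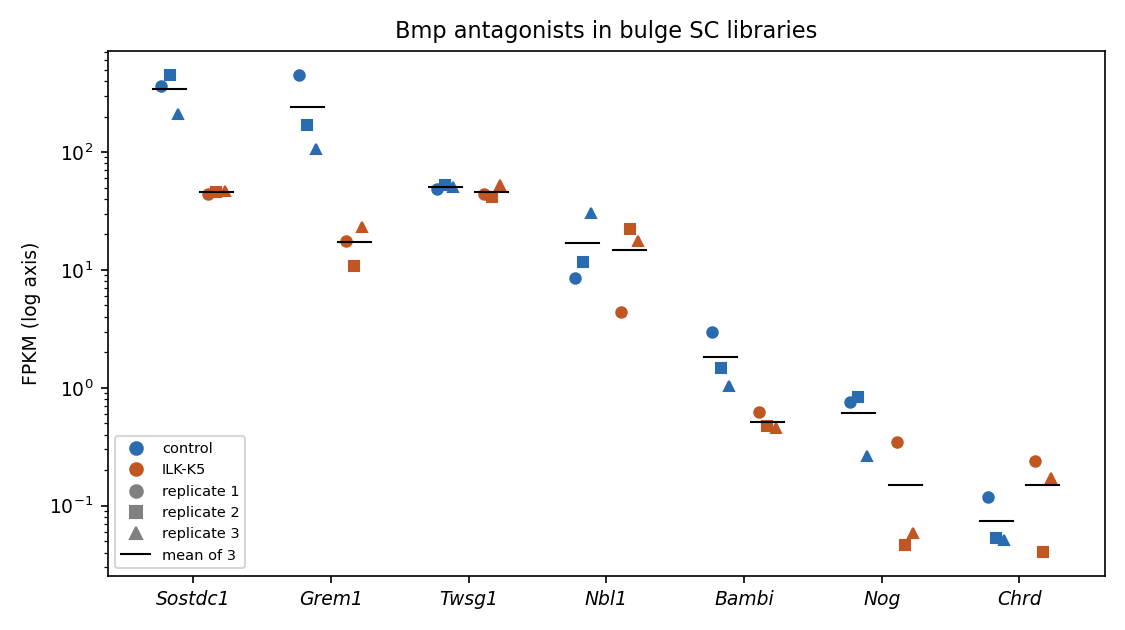
FPKM of the 7 Bmp antagonists in each library on a log axis, with control in blue, ILK-K5 in orange, a symbol for each replicate number and a black line at the mean of 3 libraries. Sostdc1 and Grem1 lie above 100 FPKM in every control library and below 50 in every ILK-K5 library, while the points of Twsg1, Nbl1, Nog and Chrd overlap between genotypes.

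The summed FPKM of the 7 genes was 876, 683 and 401 in control libraries 1 to 3. In ILK-K5 it was 111, 121 and 140, and the highest of these was below the lowest control. Grem1 and Sostdc1 together held 93.1, 90.3 and 79.6% of this sum in control and 55.4, 46.8 and 49.7% in ILK-K5. The other 5 antagonists summed to 60.7, 66.4 and 81.8 FPKM in control and to 49.7, 64.3 and 70.3 in ILK-K5, where the genotypes overlapped. For scale, the 13 Bmp ligand genes summed to 19.0, 26.1 and 26.1 FPKM in control and 25.0, 14.9 and 20.6 in ILK-K5. Summed RNA of the 7 antagonists thus exceeded summed ligand RNA in every library, by FPKM and not by protein. Genes outside the 7, described below, are not in these sums, among them Crim1 and Fst with means of 73.6 and 61.6 FPKM in control.

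**Figure D2:**
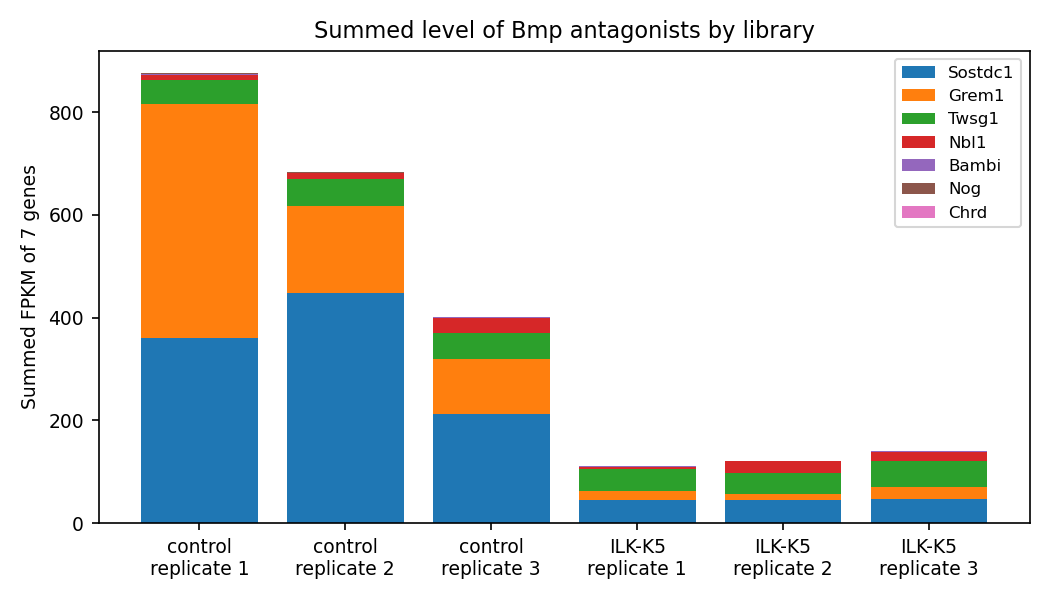
Stacked bars of FPKM for each library, where each colour is 1 of the 7 antagonists and the bar height is their sum. Control bars reach 401 to 876 FPKM and ILK-K5 bars 111 to 140, and the green Twsg1 segment has nearly the same height in all 6 libraries.

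Genotypes were compared in the fit over all 16368 genes whose mean reached 10 normalized counts, and a gene was called at an adjusted p of at most 0.05 from limma. Of the 7 members, 5 passed this filter and 2 of them, Grem1 and Sostdc1, were called lower. Over all genes tested, 98 (0.599%) were called lower and 479 (2.93%) higher in ILK-K5. Grem1, Sostdc1 and Bambi had all ILK-K5 libraries below all control libraries, which held for 1138 genes (6.95%) in all. Because the genes were chosen with this comparison known, nothing is read from these counts. In sorted bulk samples, fewer cells of a type and less RNA per cell cannot be told apart.

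Gremlin 1, the product of Grem1, is a secreted cystine-knot protein that binds Bmp2, Bmp4 and Bmp7. The gene lies on the minus strand of chromosome 2, from 113746164 to 113758646 (GRCm38), and shares no exon bases with another gene. Grem1 had 18355, 6801.5 and 4327.5 normalized counts in control libraries 1 to 3. In ILK-K5 libraries 1 to 3 it had 707, 439 and 930. Each ILK-K5 library was below each control library, and control 1 stood far above the other controls. The log2 fold change was -3.62 (standard error 0.51, 95% interval -4.77 to -2.47), or 12.3-fold lower (interval 5.54 to 27.3). Among the 98 genes called lower it ranked 18 by size.

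The labels' names of the libraries carry 1 number in replicate 1 and another in replicates 2 and 3 of both genotypes, with no meaning given. Same-numbered control and ILK-K5 libraries have matching names, and whether they are pairs is not stated. Within replicates 2 and 3 the log2 fold change of Grem1 was -3.08, and within replicate 1, with a single library of each genotype, the log2 difference was -4.70. Without control 1 it was -3.04. Grem1 was called lower in each of these fits that allow a test.

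Sostdc1 encodes sclerostin domain containing 1, also called ectodin or Wise, which binds Bmps and also acts on Wnt signals through Lrp co-receptors. Its place is chromosome 12 on the plus strand, from 36314139 to 36318452. Sostdc1 had 6169, 7662 and 3621.5 normalized counts in control and 755, 783 and 793 in ILK-K5. The ILK-K5 libraries were all below the controls and nearly equal to each other. The log2 fold change was -2.84 (standard error 0.31, interval -3.54 to -2.13), which is 7.14-fold lower (interval 4.39 to 11.6). Within replicates 2 and 3 it was -2.74, and the difference within replicate 1 was -3.03.

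The spread between libraries was smaller for Sostdc1 than for Grem1 in both genotypes. The log2 values of Sostdc1 in ILK-K5 had an SD of 0.037, and 0.825% of the genes tested had a smaller one. In control the SD was 0.56, near the median of 0.60 over all genes tested. Grem1 had an SD of 1.07 in control, above that of 80.2% of the genes. The ratio of Grem1 to Sostdc1 in FPKM was 1.26, 0.375 and 0.504 in control and 0.395, 0.237 and 0.495 in ILK-K5. Grem1 exceeded Sostdc1 in control 1 and was below it in the other 5 libraries.

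Bambi, the pseudoreceptor, is a gene on the plus strand of chromosome 18. It had 148, 73.0 and 50.8 normalized counts in control and 30.7, 23.1 and 22.4 in ILK-K5. These values rest on 48 to 153 reads per control library and 23 to 30 per ILK-K5 library. The ILK-K5 libraries lay below the controls without overlap, but Bambi was not called, and its log2 fold change was -1.66 (standard error 0.50, interval -2.80 to -0.53). It was called lower by DESeq2, with the replicate number in the model and with a term for replicate 1. Its fold change within replicates 2 and 3 was -1.38 and without control 1 it was -1.24, on the log2 scale.

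Twsg1 encodes twisted gastrulation, which binds Bmps together with chordin and can either block or release them. It lies on the minus strand of chromosome 17, from 65921972 to 65951226. Twsg1 had 1908, 2068 and 1982 normalized counts in control and 1740, 1638 and 2056 in ILK-K5. The genotypes overlapped, and the log2 fold change was -0.14 (standard error 0.24). Its interval of -0.67 to 0.40 excludes a 2-fold difference in either direction. Twsg1 was among the steadiest genes in control, with an SD of 0.058 on the log2 scale, and 0.929% of the genes tested had a smaller one.

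Nbl1, also known as Dan, encodes a secreted cystine-knot antagonist related to gremlin. It lies on the minus strand of chromosome 4, from 139082284 to 139092993. Nbl1 had 168, 230 and 600 normalized counts in control and 87.7, 441 and 348 in ILK-K5. Libraries of both genotypes were mixed in this order, and replicate 1 was the lowest of each genotype. The log2 fold change was -0.26 (standard error 0.65, interval -1.73 to 1.21), too wide to show a 2-fold difference or its absence. Its sign turned within replicates 2 and 3 (0.077), without control 3 (0.28) and without ILK-K5 1 (0.46).

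The libraries high and low in Nbl1 also differed in their mitochondrial reads. The 3 libraries with the most Nbl1, which were control 3, ILK-K5 2 and ILK-K5 3, were also those with the lowest share of mitochondrial reads, at 11.5, 14.4 and 16.9%. The other libraries had 23.6, 27.6 and 24.2%. The part of this share in the level of Nbl1 was not tested. The SD of Nbl1 in ILK-K5, 1.25 on the log2 scale, was above that of 94.7% of the genes tested.

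Noggin and chordin, the textbook Bmp antagonists, were close to the limit of detection. Nog, on the minus strand of chromosome 11 from 89300638 to 89302332, was counted in 13, 9 and 6 reads in control and 5, 1 and 1 in ILK-K5. Its normalized counts were 12.5, 13.7 and 4.35 in control and 5.69, 0.771 and 0.974 in ILK-K5. Control 3 was below ILK-K5 1, so the genotypes overlapped. Chrd, a plus-strand gene on chromosome 16 (20733127 to 20742384), was counted in 7, 2 and 4 reads in control and 12, 3 and 10 in ILK-K5. Its normalized counts were 6.75, 3.04 and 2.90 against 13.7, 2.31 and 9.74, and 3.82% of its exon bases are shared with Thpo on the opposite strand. Both genes missed the filter on low values and a difference was not detectable at this depth.

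Of the 4 members with an entry in the RefSeq promoter table (GRCm38.p6), Grem1 and Twsg1 are shown because the first was called lower and the second was level. The windows run 5′ to 3′ from 250 to 51 bases before the RefSeq start and overlap no annotated exon. They are chr2:113758699-113758898 on the minus strand for Grem1 and chr17:65951238-65951437 on the minus strand for Twsg1. Capitals mark CTTTG, the core of Tcf/Lef sites, which reads CAAAG on the other strand, and GGCGCC, a GC-rich Smad1/5 site.
Grem1: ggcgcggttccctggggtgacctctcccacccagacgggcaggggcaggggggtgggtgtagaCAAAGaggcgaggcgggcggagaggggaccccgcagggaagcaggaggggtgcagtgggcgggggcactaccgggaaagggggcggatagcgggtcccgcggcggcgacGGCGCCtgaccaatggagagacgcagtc
Twsg1: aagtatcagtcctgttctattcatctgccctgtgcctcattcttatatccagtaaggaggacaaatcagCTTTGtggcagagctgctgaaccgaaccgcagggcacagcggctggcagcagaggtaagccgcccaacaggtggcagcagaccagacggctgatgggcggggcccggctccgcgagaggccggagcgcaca
Both windows hold CTTTG, starting 187 bases before the start in Grem1 (as the reverse complement) and 181 in Twsg1. That motif was present on either strand in 42.3% of 32851 promoter windows of the same length. GGCGCC is its own reverse complement, and was found 78 bases before the start in Grem1 and also in the windows of Chrd and Nbl1 but not in that of Twsg1, against 7.15% of all windows. Neither GTCTAGAC (in 0.155% of all windows) nor TATAAA (9.14%) was found in the 4 windows. The GC content was 73% in Grem1, 60% in Twsg1, 78.5% in Chrd and 74% in Nbl1, against a median of 51.5%. A match is a description of the letters and not of a site in use.

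Among themselves, Grem1, Sostdc1 and Bambi had similar patterns over the 6 libraries. Pearson's r of the log2 values was 0.95 for Grem1 and Sostdc1, 0.96 for Grem1 and Bambi and 0.90 for Sostdc1 and Bambi. The points of each pair share their libraries and the genotype difference for which the genes are described. After the genotype means were taken off, r was 0.47, 0.86 and 0.50. Between Nbl1 and Bambi r was -0.24 on the log2 values and -0.75 on the deviations. With Grem1 the values for Nbl1 were -0.073 and -0.58, with Sostdc1 0.033 and -0.48, and with Twsg1 0.19 and 0.14.

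Grem1 and Bambi were both highest in control 1. In that library Grem1 was 1.76 above the mean of the other controls on the log2 scale, and Bambi was 1.26 above it, beside a median of -0.0070 over all genes tested. The differences of Grem1 and Bambi were above those of 94.6 and 88.4% of the genes tested. Id1, Id2 and Id3, which encode inhibitors of helix-loop-helix factors and are direct Bmp targets, were higher in the same library by 1.28, 1.15 and 1.41. These differences were above those of 88.8, 86.4 and 90.5% of the genes tested. Of the other Bmp targets listed, Id4 (0.86) and Msx2 (1.65) were also higher there, and Msx1 (-1.58) and Atoh8 (-0.36) were lower. Among Smad genes, Smad7 (1.88), Smad1 (0.80), Smad9 (0.65) and Smad6 (0.30) were higher there, and Smad5 (-0.21) and Smad4 (-0.043) lower. Genes outside the pathway differed too. The bulge SC markers Lgr5 (1.18), Lhx2 (1.09), Cd34 (0.56) and Nfatc1 (0.35) were higher in control 1. Krt15 (-1.23), Tcf7l1 (-0.43), Sox9 (-0.28) and Itga6 (-0.058) were lower. Sostdc1 was 0.23 above the other controls and Twsg1 0.085 below (-0.085). Nbl1 had a difference of -1.14. In ILK-K5 the same difference of replicate 1 from the others was 0.15 for Grem1, 0.42 for Bambi and -2.15 for Nbl1.

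**Figure D3:**
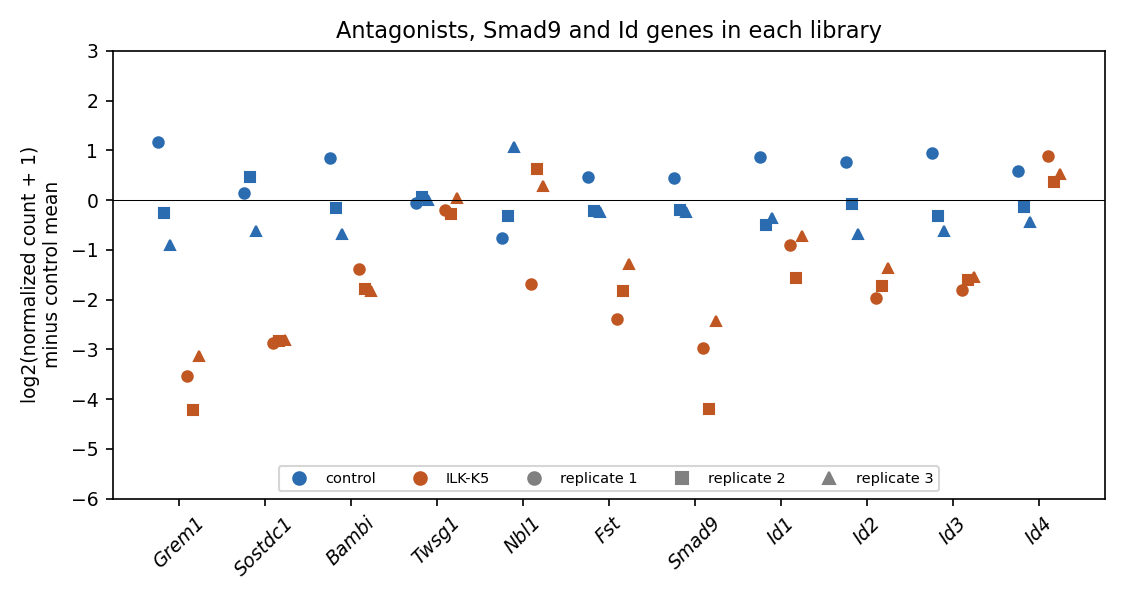
Level of 5 antagonists, Fst, Smad9 and the Id genes in each library, as log2(normalized count + 1) minus the mean of the controls, with control in blue, ILK-K5 in orange and a symbol for each replicate number. Control 1 (blue circle) is the highest control for Grem1, Bambi, Fst, Smad9 and the Id genes, and the ILK-K5 points of Sostdc1 lie together near -2.8.

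The genes whose pattern was most like that of each member were named by the highest r of the log2 values over 6 libraries. For Grem1 these were Gm13068 (r = 0.999), Duoxa1 (0.998), which encodes a maturation factor of dual oxidase, and the small heat shock protein gene Hspb8 (0.997). Duoxa1 and Hspb8 were called lower, with log2 fold changes of -1.60 and -2.51. For Sostdc1 they were Serpinb11 (0.999), Scml2 (0.992), which encodes a Polycomb protein, and Gm3755 (0.990). Serpinb11 and Scml2 were called lower, with -1.18 and -1.75 on the log2 scale. For Bambi they were Lgr6 (0.991), which encodes a receptor of R-spondins, Tyms (0.991) and Mfsd14b (0.988), and none of these was called.

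Few genes were as close to Twsg1, and many to Nbl1. Rlim (0.979), Gm11008 (0.978) and Amd-ps4 (0.975) were the nearest to Twsg1, and only 6 genes reached an r of 0.95. Nbl1 had 243 such genes, led by Rtkn (0.9996), then Tom1 (0.997) and Gm13050 (0.996). Grem1 had 97, Sostdc1 70 and Bambi 104, of 16368 genes searched over only 6 libraries.

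The rest of the pathway was read from lists of 51 genes by role, of which 37 passed the filter. In ILK-K5, 1 of these was called higher and 3 lower, beside 2.93 and 0.599% of all genes tested. The median log2 fold change of the 37 was -0.40, with 23 below 0, beside 0.0054 over all genes tested. These lists, too, were written with results of these data known.

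Among 12 other genes of Bmp antagonists and related proteins, 8 passed the filter, 1 was called higher and 1 lower. Follistatin, encoded by Fst, binds activins and some Bmps, and had 1880, 1178 and 1154 normalized counts in control and 260, 387 and 564 in ILK-K5. All ILK-K5 libraries were below the controls, and the log2 fold change was -1.83 (standard error 0.35). It was not called without control 2, ILK-K5 1 or ILK-K5 2 (-1.94, -1.55 and -1.83), or within replicates 2 and 3 (-1.32). Smoc2, which encodes a secreted calcium-binding matrix protein, had 303, 274 and 427 normalized counts in control and 1060, 1297 and 831 in ILK-K5. It was higher in every ILK-K5 library, and the log2 fold change was 1.67 (standard error 0.29), and lost its call in the same 4 fits, where it ran from 1.51 to 1.66.

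Some markers of dermal cells were higher in the same libraries as Smoc2 and others were not. Of 8 fibroblast markers 5 passed the filter and 2, Col3a1 and Dpt, were called higher, and the summed level of the list was 703 to 782 normalized counts in control and 1549 to 2525 in ILK-K5, with Col1a1 the highest and no marker at 0 in all 6 libraries. Of 7 dermal papilla markers 3 passed and 1, Vcan, the highest of them, was called higher (sums of 120 to 142 and 301 to 402), while Sox2 was at 0 in every library. In the same list Hhip was lower in every ILK-K5 library without being called (50.5 ± 32.5 against 6.81 ± 1.06 normalized counts, SD, n = 3), Rspo3 had 48 reads over the controls against 1, and Alpl had 26 against 3. These markers were named after their values were seen. Smooth muscle markers, led by Acta2, summed to 27.4 to 74.3 and 126 to 168 with none of 3 called. No gene was called among endothelial markers (1 tested, Pecam1), melanocyte markers (4 tested, led by Pmel), hair germ and matrix markers (4, led by Cdh3) and basal keratinocyte markers (5, led by Krt5). Of 6 differentiated keratinocyte markers tested, led by Krtdap, Lor was called lower. The part of these cells, and of the macrophages, in the differences of the antagonists was not tested.

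The most abundant uncalled genes of that antagonist list were Crim1, whose log2 fold change was -0.73 (standard error 0.37), and Cer1, whose value was -0.39 (0.57). Kcp, added after its value was seen, had 1.98 (1.11) with overlapping genotypes. Of the 8 genes of this list tested, 4 had a log2 fold change above 0 and 4 below. Sost, the closest relative of Sostdc1, was listed at 0 reads in all 6 libraries. Of the chordin-cleaving proteases, Bmp1 (1.03, standard error 0.36) and Tll1 (0.65, 0.36) passed the filter and were not called. Every ILK-K5 library was above the controls for Bmp1, and the genotypes overlapped for Tll1.

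No ligand or receptor gene was called by limma with all libraries. Of 13 ligand genes 6 passed the filter, and the most abundant were Bmp7, whose log2 fold change was 0.49 (standard error 0.37), and Bmp2, whose value was -0.83 (0.31). Added after their values were seen, Bmp4 had -1.90 (standard error 0.77), with every ILK-K5 library below the controls, and was called lower by DESeq2. Bmp3, also added, had -1.72 (0.96) and was called lower without control 1 (-2.90). Bmp6, added likewise, had 1.26 (1.13) with overlapping genotypes. Of the 6 ligand genes tested, 2 had a log2 fold change above 0 and 4 below. Of 7 receptor genes 5 passed, and Bmpr2 (-0.17, standard error 0.30) and the type I receptor gene Bmpr1a (-0.40, 0.29) were the most abundant. The Wnt co-receptor genes Lrp4, Lrp5 and Lrp6, on whose proteins Sostdc1 also acts, all passed without a call, with -0.09 (standard error 0.29) for Lrp6 and -0.40 (0.27) for Lrp5, whose ILK-K5 libraries were all below the controls.

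Smad9, also called Smad8, was the only call among 6 Smad genes. It had 348, 224 and 218 normalized counts in control and 31.9, 13.1 and 46.8 in ILK-K5. No libraries overlapped, and the log2 fold change was -3.20 (standard error 0.50). Smad5 (0.05, standard error 0.25) and Smad1 (0.46, 0.34), which carry the same signal, were not called. Smad4 and Smad6 were added after their values were seen and were not called. Smad4 had 0.22 (standard error 0.24), with every ILK-K5 library above the controls. Smad6 had -0.77 (0.51), with every ILK-K5 library below them.

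Of the 7 Bmp targets Id2 was called lower by limma with all libraries. Id2 had 2677, 1484 and 977 normalized counts in control and 401, 476 and 612 in ILK-K5, and its log2 fold change was -1.68 (standard error 0.38). Its genotypes did not overlap. It was not called within replicates 2 and 3 (-1.16), and of the 6 fits without 1 library it kept its call only without control 3. Without control 1, 2 and ILK-K5 1, 2 and 3 its log2 fold changes were -1.30, -1.72, -1.54, -1.66 and -1.85. Id3 had -1.65 (standard error 0.39) and was not called, and was called lower without control 3 (-1.96) and in 5 other alternatives. Id4 had 0.60 (standard error 0.32) and was not called. The naming rule does not reach Id1 and Atoh8, which were added after their values were seen. Id1 had -1.06 (standard error 0.43) and was not called. Atoh8, which encodes a helix-loop-helix factor, had 30.9, 54.7 and 29.0 normalized counts in control and 0, 2.31 and 10.7 in ILK-K5. Its groups did not overlap, and its log2 fold change of -3.47 (standard error 0.95) was the largest of the list in size. It was not called by limma with all libraries and was called lower by DESeq2, with the replicate block and with the term for replicate 1.

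**Figure D4:**
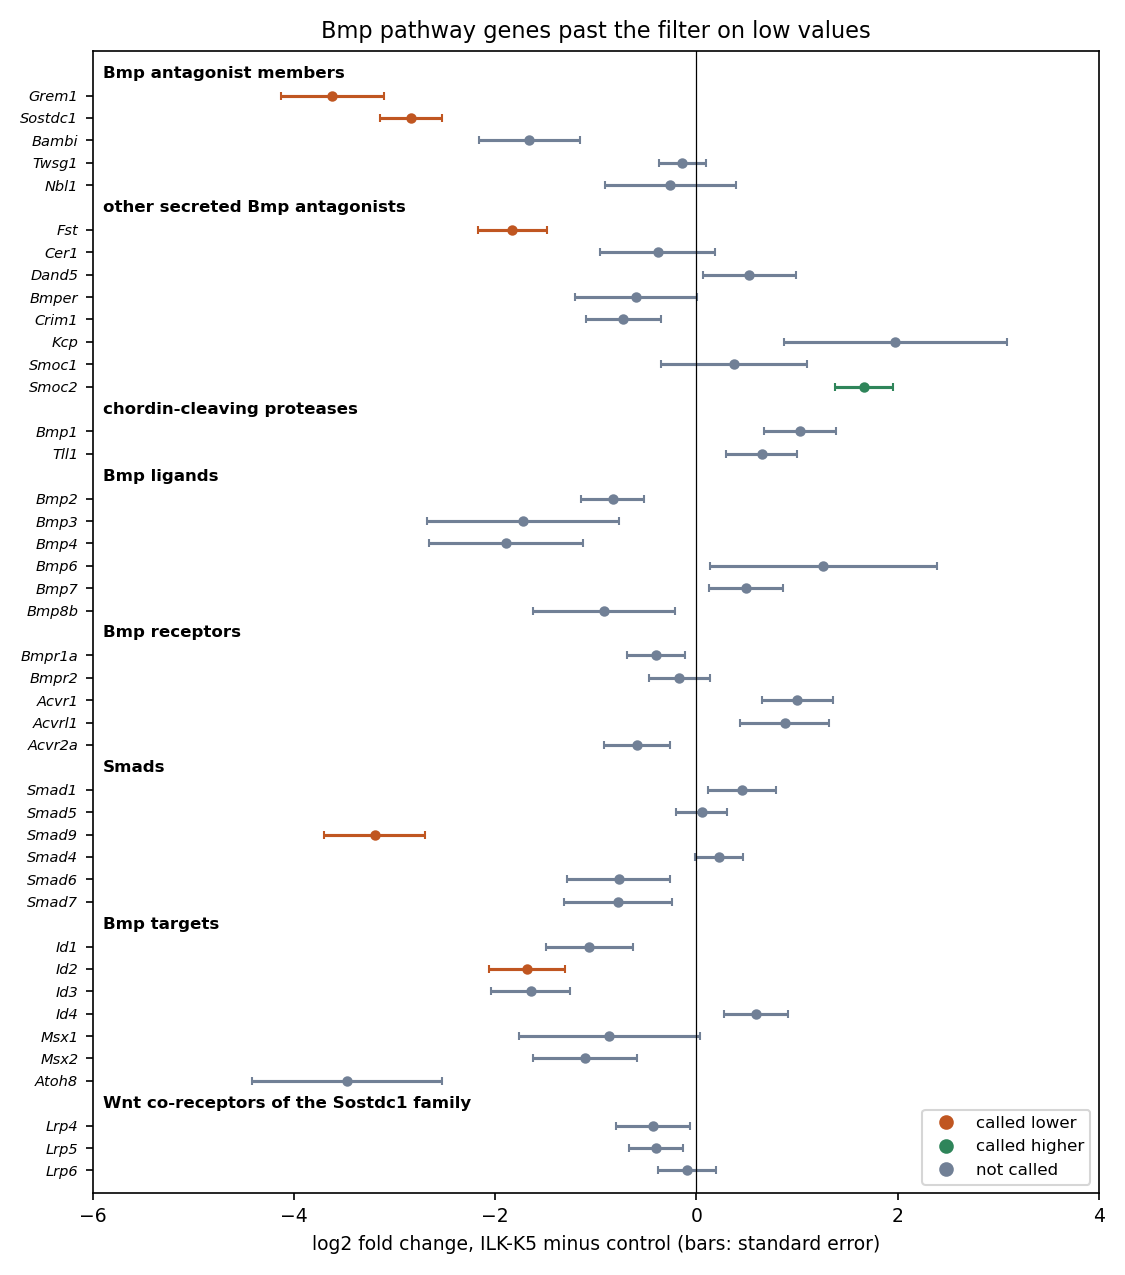
Log2 fold change (ILK-K5 minus control) with its standard error for the 5 antagonists and 37 other Bmp pathway genes that passed the filter, grouped by role. Orange points were called lower, green higher and grey were not called, and the calls outside the 5 antagonists are Fst, Smad9 and Id2 (lower) and Smoc2 (higher).

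The differences of Grem1 and Sostdc1 did not depend on any single setting tried. Over 18 alternatives of test, scaling, filter, pseudocount and libraries, the log2 fold change of Grem1 ran from -4.08 to -3.04 and that of Sostdc1 from -3.14 to -2.60, and both were called lower in all 18. That of Bambi ran from -2.002 to -1.24 and that of Twsg1 from -0.23 to -0.052, without a change of sign. Some of the 18 could not move a fold change. Other filters and the replicate terms change only the p-value, and the FPKM table differs only in the weight of its pseudocount. Nbl1 ran from -0.70 to 0.46.

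**Figure D5:**
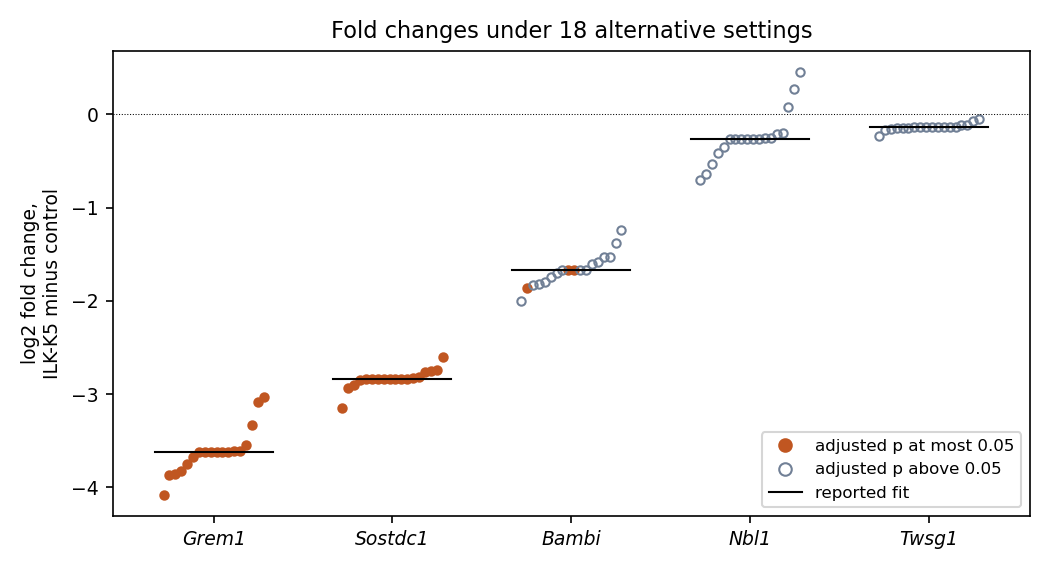
Log2 fold change (ILK-K5 minus control) of 5 antagonists under 18 alternative settings (points in order of value) and in the reported fit (black line). Filled points have an adjusted p of at most 0.05, which holds for all points of Grem1 and Sostdc1, for 3 of Bambi and for none of Nbl1 and Twsg1.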

How the data were processed

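RNA from 6 libraries of sorted bulge SCs was amplified with the Ovation RNA-Seq System V2 and made into Nextera XT libraries. Adapters and ribosomal RNA reads were removed and read pairs were aligned to GRCm38, for which the submitters' processing notes name TopHat2 2.0.14, Bowtie2 2.2.4 and DESeq2 1.6.3. The program that counted reads per gene is not given in the sources used here. The authors deposited a signal table of normalized counts, which are reads divided by 1 size factor per library. The FPKM table deposited by the authors equals the normalized counts times 1 constant per gene. Tables of the authors' own comparison hold fold changes and p-values and were not used. Of the normalized counts, 100% were whole multiples of 1 read (tolerance 1e-06), so reads were recovered for count tests.

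Of 43274 identifiers, 42107 (97.3%) had a symbol in GENCODE M21, which gave coordinates. The 7 members and all gene lists were chosen with earlier results of these data known. All members were named, as were, from each role list, every called gene and up to 2 uncalled genes of the highest mean, the 3 genes most like each member, and of each marker list the highest gene and genes at 0. Genotypes were compared with limma 3.58.1 (eBayes with trend, R 4.3.3) on log2(normalized count + 1) for 16368 genes with a mean of at least 10, with Benjamini-Hochberg adjustment and a limit of 0.05; fold changes on this scale understate those of low genes. All tests are two-sided. Alternatives were edgeR 4.0.16, DESeq2 1.42.0, other scalings, filters and pseudocounts, the FPKM table, replicate terms and fits without libraries. The limma fit was run on simulated counts with the same dispersion for all genes and large changes only in genes with a mean of at least 50. That run checks the code and does not measure the error of the calls in these libraries. The depth of 8228019 to 11969072 reads on genes per library limits genes such as Nog and Chrd. Protein sequences of the members were not compared here.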

Additional observations from a re-analysis of the deposited data

How the results depend on the processing

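Grem1, Sostdc1 and Twsg1 kept their direction and their side of the limit in all 18 alternatives, and 2 or 3 members were called lower, Bambi being the third. The filters and replicate terms among these could not change a direction. Bambi was called by DESeq2 (-1.87 on the log2 scale, adjusted p = 0.0182), with the replicate block (-1.66, adjusted p = 0.0427 from limma) and with a term for replicate 1 (-1.66, adjusted p = 0.0305 from limma), against an adjusted p of 0.144 from limma as reported and a range of 0.0182 to 0.441 over its alternatives. Nbl1, never called, turned to 0.077 with replicates 2 and 3 only, to 0.28 without control 3 and to 0.46 without ILK-K5 1, and with 1 library left out it ran from -0.70 to 0.46. The cause of these turns was not tested. The pathway genes called lower numbered 6 with DESeq2, 5 with the replicate block, 5 with the term for replicate 1 and 1 with replicates 2 and 3 only, against 3, and 1 to 4 with 1 library left out. Pathway genes called higher numbered 0 with replicates 2 and 3 only, against 1, and 0 to 1 with 1 library left out. Without control 2, ILK-K5 1 or ILK-K5 2 there were 0 higher and 1 lower. Over all genes, calls higher numbered 772 (DESeq2), 848 (replicate block), 846 (term for replicate 1) and 222 to 559 with 1 library left out, against 479, and calls lower 280, 269, 286 and 32 to 98, against 98. The lowest of both came without ILK-K5 2.

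Whether same-numbered control and ILK-K5 libraries are pairs is not stated, and the reported fit has no term for it. Correlations of their deviations from the genotype means were 0.53, 0.020 and 0.31. Control 1 correlated best with its own number, and control 2 and control 3 with another (0.074 with ILK-K5 3 and 0.50 with ILK-K5 2). These values cannot decide on pairing, since the deviations of 3 libraries sum to 0 within each genotype. In Id2 the call was lost with the FPKM table (-1.68), a mean of at least 50 (-1.68) and a pseudocount of 0.1 (-1.69). Nog and Chrd, tested without the filter, had differences of -1.84 and 0.70 and were not called. No scaling moved the median of all genes by over 0.1. Depth limits Nog and Chrd, at 28 and 13 reads over the controls and 7 and 25 over ILK-K5.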

Other observations

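The search for genes like each antagonist was repeated over the 6 libraries after the genotype means were taken off the log2 values. Grem1 was nearest to the taurine transporter gene Slc6a6 (r = 0.997), Myh8 (0.996) and Gm13068 (0.993). Slc6a6 had 20866 ± 5864 normalized counts in control and 14842 ± 1743 in ILK-K5 (SD, n = 3) and was not called. Sostdc1 was nearest to Lsm6 (0.997), Dph6 (0.996) and Mocs3 (0.996), and Bambi to Gm24095 (0.9998), Irf2bpl (0.9997) and Spidr (0.9995). Twsg1 was nearest to Fbxo38 (0.994), Them5 (0.988) and Fgfr2 (0.987), which encodes a receptor of fibroblast growth factors. Them5, a thioesterase gene, was itself called lower, with 721 ± 41.9 normalized counts in control, 183 ± 57.7 in ILK-K5 and a log2 fold change of -2.01 (standard error 0.30), so a pattern like that of Twsg1 within genotypes went with a different level between them. Nbl1 was nearest to Rtkn (0.9996), Zfp362 (0.998) and Gm13740 (0.998), and 740 genes had an r of at least 0.95 with it, against 101 for Grem1, 129 for Sostdc1, 374 for Bambi and 19 for Twsg1. The points share their libraries, and these values are given as a description. With 16368 genes searched over only 6 libraries, r values this high also arise without any link between genes. How many would do so was not tested.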
